A study of Mus musculus with 7 samples.

Results

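Expression of 9 genes of the B lymphocyte and plasma cell lineage was read in bulk RNA from the hearts of 7 mice. The genes are Igj, Mzb1, Pou2af1, Cd79a, Cd79b, Blk, Cd22, Ms4a1 and Pax5, picked by name from a table of 23420 gene rows, and all 9 had a row. The choice was made with earlier results of these data known, so the differences between groups are given as a description of these genes and support nothing by themselves. The 4 control mice were Ctla4+/+;Pdcd1-/- and the 3 mice with myocarditis of the immune checkpoint inhibitor type (ICI-myocarditis) were Ctla4+/-;Pdcd1-/-. By label both groups therefore lacked Pdcd1, which encodes the T cell inhibitory receptor PD-1, and differed by label in 1 copy of Ctla4, which encodes the inhibitory receptor CTLA-4. All animals were untreated and 3 to 6 weeks old, so no checkpoint inhibitor drug was given. The tissue is labelled whole heart, while the extraction text names flash-frozen ventricle. No mouse with intact Pdcd1 and no drug-treated mouse was among the samples.

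B cells carry an antigen receptor made of a membrane immunoglobulin and the signalling pair CD79A and CD79B, and kinases such as BLK pass its signal on. CD20, the product of Ms4a1, and the transcription factor PAX5 mark B cells and are lost when these cells mature into antibody-secreting plasma cells. Plasma cells in turn make the joining (J) chain, which links IgM and IgA units into polymers.

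Recovered totals ran from 20931730 to 39037176 reads assigned to genes per library. Heart muscle genes were abundant in all 7 libraries, with a summed level of 8 markers of at least 770510 normalized counts (reads divided by a size factor of the library). All 8 had log2 changes below 0 (median -0.84), with 0 called lower by limma and 2 lower at an unadjusted p under 0.05. Of the 8, 3 had every control above every ICI-myocarditis library, as had 11.3% of all genes tested. In the authors' deposited table Ryr2, Myh6 and Tnni3 of the 8 were lower with adjusted p of 0.00254, 0.0111 and 0.0404. The part of heart muscle RNA in the results below was not tested. Ctla4 rose from 63.3 ± 37.4 (SD, n = 4) to 302 ± 63.4 normalized counts (SD, n = 3), by 2.40 on the log2 scale (limma adjusted p = 0.00849). Pdcd1, deleted by label in every mouse, had 9.07, 244, 3.35 and 2.50 normalized counts in controls 1 to 4 and 1096 to 1481 in ICI-myocarditis. The table does not show which part of a gene its reads cover, so neither gene checks its genotype label. Control 2 lay apart from the other controls on the first principal component, at 2.25 against -96.7 to -61.2, with ICI-myocarditis libraries at 58.9 to 105. Control 2 also had the most reads of T cell genes among controls, with Cd3e at 250.4 normalized counts against at most 20.2. Without control 2 the log2 changes were 5.41 for Igj, 4.36 for Cd22, 2.13 for Pou2af1 and 1.39 for Cd79b, and limma called the same 4 genes.

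Igj, named Jchain in current annotation, encodes the J chain and showed the widest gap of the 9 genes. It lies at chr5:88519809-88527891 on the minus strand of GRCm38, with no overlapping gene in GENCODE M21. Controls 1 to 4 had 10.1, 19.7, 11.2 and 6.26 normalized counts of Igj. ICI-myocarditis libraries 1 to 3 had 785, 250.02 and 383. The lowest ICI-myocarditis library was thus far above the highest control, and library 1 stood well above libraries 2 and 3. Means were 11.8 ± 5.69 (SD, n = 4) and 473 ± 278 normalized counts (SD, n = 3), a ratio of means of 40.01. The log2 change of Igj on the log2(normalized count + 1) scale was 5.15 (limma adjusted p = 0.00251, SE 0.486, 95% interval 4.05 to 6.24). In the authors' deposited table Igj had the lowest p-value of all genes (rank 1), with a log2 change of 5.32, a standard error of 0.504 and an adjusted p of 7.72e-22. The reads behind the control values were few, between 5 and 16 per library, against 345 to 767 in ICI-myocarditis.

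Pou2af1 encodes OBF-1 (OCA-B), a coactivator of B cells that binds together with octamer factors to DNA. It lies at chr9:51213708-51240080 on the plus strand and holds a sense intronic RNA, Gm47828, whose reads the counting could have shared. Controls had 7.06, 7.40, 4.47 and 7.51 normalized counts of Pou2af1, and ICI-myocarditis libraries had 22.5, 27.5 and 45.8. The groups did not overlap, although all values were low (4 to 60 reads per library). The log2 change of Pou2af1 was 2.07 (limma adjusted p = 0.0138, SE 0.442, 95% interval 1.08 to 3.07). The adjusted p of Pou2af1 was 0.0514 without ICI-myocarditis 2 and 0.0890 without ICI-myocarditis 3. Pou2af1 met the low-value filter, 10 normalized counts in at least 3 libraries, only through the ICI-myocarditis libraries.

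Because OBF-1 acts at the octamer, the 250 bases before the RefSeq start sites (GRCm38.p6) of Igj and Pou2af1, both higher in ICI-myocarditis, are shown and were searched. The search covered both strands for the octamer ATGCAAAT, its core TGCAAAT, the ETS motif AGGAAGT, the ETS-IRF composite, the interferon-stimulated response element and the gamma-activated site TTCNNNGAA. The octamer contains its core, so a match to the first is also a match to the second. The upstream sequence of Igj (chr5:88527898-88528147, minus strand) and that of Pou2af1 (chr9:51213440-51213689, plus strand) are shown 5′ to 3′, with motif matches in capitals.
Igj: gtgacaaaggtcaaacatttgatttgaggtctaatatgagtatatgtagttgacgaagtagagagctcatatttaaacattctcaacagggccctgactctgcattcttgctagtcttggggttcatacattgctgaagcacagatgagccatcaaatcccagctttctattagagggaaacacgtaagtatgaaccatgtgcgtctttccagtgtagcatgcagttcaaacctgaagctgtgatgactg
Pou2af1: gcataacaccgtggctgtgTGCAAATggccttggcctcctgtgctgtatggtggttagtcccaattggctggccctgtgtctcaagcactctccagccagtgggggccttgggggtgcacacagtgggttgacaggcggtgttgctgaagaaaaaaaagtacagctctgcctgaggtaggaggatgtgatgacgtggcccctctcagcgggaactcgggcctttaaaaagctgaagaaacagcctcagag
The Pou2af1 sequence held the octamer core 231 bases before the start, a match present in 3.56% of 32851 promoter windows of the same length, and the Igj sequence held none of the 6 motifs. Promoter sequences matched 5 of the 9 genes. Of the other 3, Cd79a held the ETS motif 55 bases before the RefSeq start, as did 7.69% of windows, and Cd22 and Pax5 held no match. By GENCODE M21 the Cd79a window (chr7:24897247-24897496) reaches into the gene, with the ETS match inside it. The Cd22 window (chr7:30879029-30879278) lies wholly inside its GENCODE gene. The full octamer was present in 1.6% of windows and in none of the 5 matched genes. A match is a run of letters and not a measured binding site.

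Mzb1, which encodes a chaperone of the endoplasmic reticulum that assists antibody assembly in marginal zone B cells and plasma cells, did not pass the test. Its control values were 33.3, 56.7, 39.1 and 20.02 normalized counts, and its ICI-myocarditis values were 53.2, 48.6 and 87.9. ICI-myocarditis libraries 1 and 2 lay below control 2, so the groups overlapped. Mzb1 had a log2 change of 0.79 (limma adjusted p = 0.248, SE 0.421), with a 95% interval from -0.16 to 1.74. The gene overlaps SPATA24 on the same strand of chromosome 18, so some of its reads may belong to that gene.

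**Figure D1:**
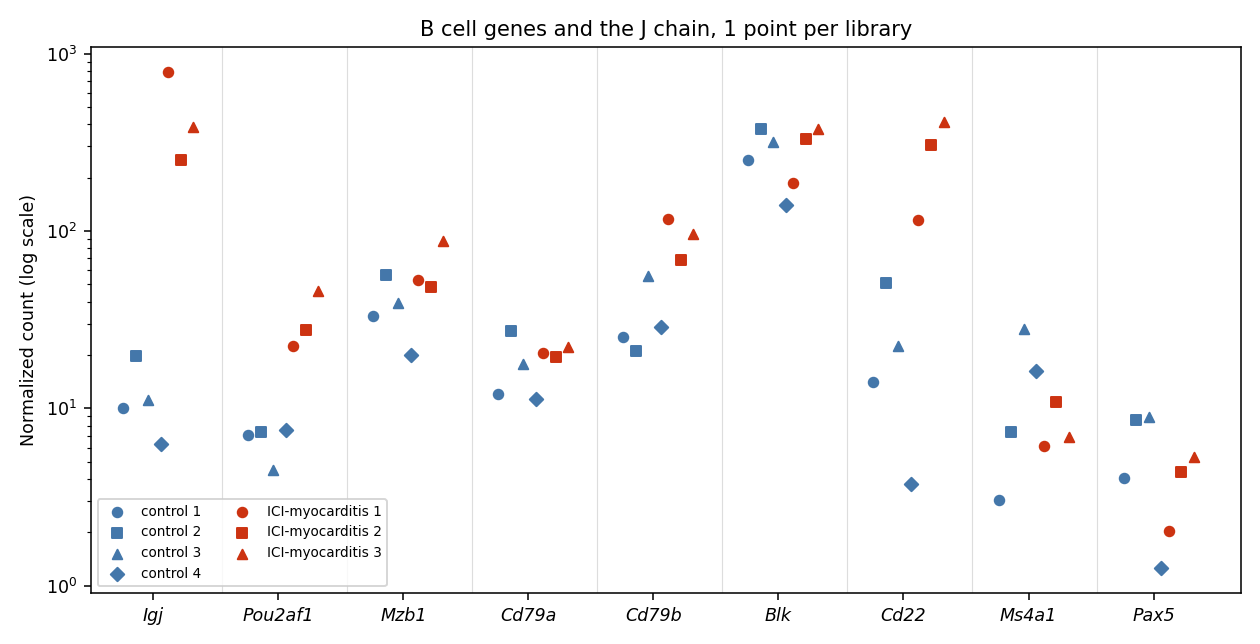
Normalized counts (log axis) of the 9 genes, 1 point per library, controls in blue and ICI-myocarditis in red, with marker shape giving the replicate number. All 3 ICI-myocarditis points lie above all 4 controls for Igj, Pou2af1, Cd79b and Cd22, and the groups overlap for Mzb1, Cd79a, Blk, Ms4a1 and Pax5.

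Of the receptor pair, Cd79b was called higher in ICI-myocarditis and Cd79a was not called. Cd79a (chr7:24897381-24902197, plus strand) had 12.1, 27.1, 17.9 and 11.3 normalized counts in the controls, against 20.5, 19.6 and 22.2 in ICI-myocarditis. All ICI-myocarditis values of Cd79a lay inside the control range, and the log2 change was 0.34 (limma adjusted p = 0.644, SE 0.429, 95% interval -0.62 to 1.31). Cd79b (chr11:106311341-106314762, minus strand) had 25.2, 20.97, 55.8 and 28.8 normalized counts in the controls, against 117, 68.8 and 95.5 in ICI-myocarditis. Every ICI-myocarditis library was above every control for Cd79b, with control 3 nearest. Its log2 change was 1.56 (limma adjusted p = 0.0310, SE 0.406, 95% interval 0.64 to 2.47). This call was lost in 6 of 18 alternatives, among them leaving out any 1 of the ICI-myocarditis libraries (adjusted p = 0.108, 0.0559 and 0.111) or control 1 (0.0816). Whether the fold changes of the 2 partners differ was not tested.

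Blk encodes a SRC family kinase of B cells that is also known in subsets of T cells. At chr14:63372836-63417037 (minus strand), it had 250.04, 375, 318 and 140.1 normalized counts in the controls, against 186, 330.5 and 377 in ICI-myocarditis. The groups overlapped along nearly their whole range. Blk had a log2 change of 0.17 (limma adjusted p = 0.814, SE 0.378, 95% interval -0.69 to 1.02).

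Cd22 encodes a sialic acid-binding lectin that restrains B cell receptor signalling. It lies at chr7:30865402-30880342 on the minus strand and overlaps the antisense RNA Gm29439. Controls had 14.1, 50.6, 22.3 and 3.75 normalized counts of Cd22, and ICI-myocarditis libraries had 115, 306 and 410.3. ICI-myocarditis 1 was the lowest of its group here, whereas it was the highest for Igj, and control 2 was the highest control for both genes. Means of Cd22 were 22.7 ± 20.1 (SD, n = 4) and 277 ± 150.0 (SD, n = 3), a ratio of means of 12.2. The log2 change was 3.83 (limma adjusted p = 0.0108, SE 0.764, 95% interval 2.11 to 5.55), and the adjusted p was 0.0510 without ICI-myocarditis 3. Without control 4, the lowest control, Cd22 had a log2 change of 3.22.

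Ms4a1 encodes CD20 and lies at chr19:11249675-11266241 (minus strand), where it overlaps the antisense RNA 4930526L06Rik. Its values were 3.02, 7.40, 27.9 and 16.3 normalized counts in the controls, against 6.14, 10.9 and 6.88 in ICI-myocarditis. The ICI-myocarditis libraries lay among the lower controls, and no library held more than 25 reads of it. Ms4a1 had a log2 change of -0.38 (limma adjusted p = 0.761, SE 0.689), with a 95% interval from -1.94 to 1.17. Pax5 (chr4:44524757-44710487, minus strand) was lower still, at 4.03, 8.63, 8.93 and 1.25 normalized counts in the controls, against 2.05, 4.35 and 5.35 in ICI-myocarditis. It did not reach the filter and was not tested.

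Of the 9 genes, 8 passed the filter, 4 were called higher in ICI-myocarditis (limma adjusted p below 0.05) and 0 were called lower, with 0 lower also at an unadjusted p under 0.05 and 0 lower by edgeR and DESeq2. Over all 15258 genes tested, 11.7% were called higher and 4.00% lower. The same 4 genes, Igj, Pou2af1, Cd79b and Cd22, had all ICI-myocarditis libraries above all controls, as had 17.3% of genes tested. Because these genes were chosen with results known, nothing is read from these counts. The count called higher was 2 without ICI-myocarditis 2 and 1, Igj, without ICI-myocarditis 3.

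**Figure D2:**
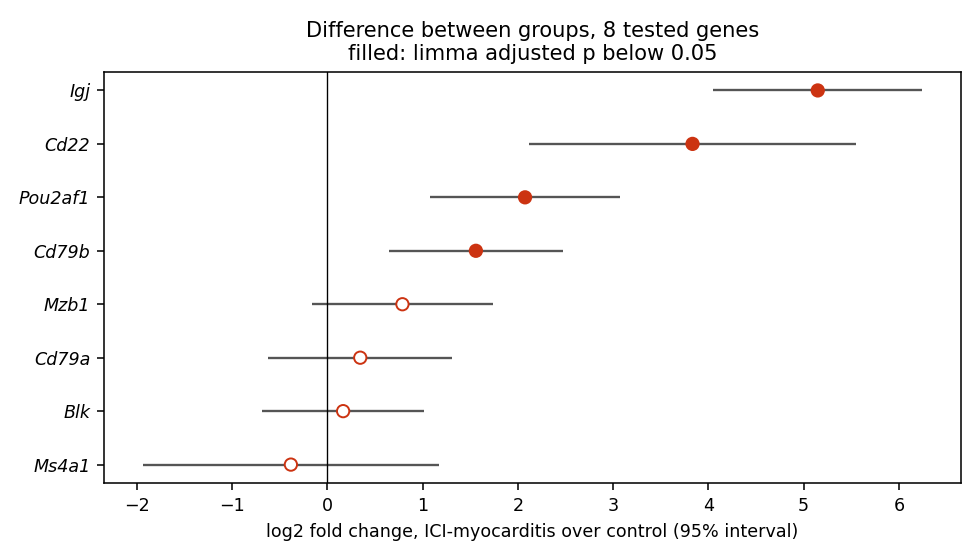
Log2 fold change of ICI-myocarditis over control for the 8 tested genes, with 95% intervals from limma, filled where the adjusted p was below 0.05. The intervals of Mzb1, Cd79a, Blk and Ms4a1 include 0, and Igj sits highest at 5.15.

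Levels of different genes were compared per kilobase of merged exons. In controls Blk was highest at 100.4 normalized counts per kb, followed by Mzb1 at 30.7, Cd79b at 22.8 and Cd79a at 11.7. Igj at 4.69, Cd22 at 4.50, Pou2af1 at 2.59, Ms4a1 at 2.21 and Pax5 at 0.645 per kb made up the lower part of the order. The control range of Blk per kb, 51.9 to 139, lay above the range of Mzb1, 16.5 to 46.7, while Mzb1, Cd79b and Cd79a overlapped with one another, as did Igj, Cd22, Pou2af1 and Ms4a1. Cd79a (lowest 7.73) just overlapped with Igj (highest 7.84), and Pax5 overlapped with Ms4a1. In ICI-myocarditis the order per kb began with Igj at 188, then Blk at 110.5, Cd79b at 65.5, Cd22 at 54.9 and Mzb1 at 52.0. The ranges of Igj (99.3 to 312) and Blk (69.0 to 140) overlapped there, and so did those of Blk, Cd79b, Cd22 and Mzb1. Cd79a at 14.2 and Pou2af1 at 12.5 per kb followed with overlapping ranges, and Ms4a1 at 1.29 and Pax5 at 0.442 were again last. Per kb, Igj lay below Cd79a in every control and above it in every ICI-myocarditis library.

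Ptprc, which encodes the common leukocyte antigen CD45, gives a scale for immune cells of all kinds. It rose from 1246 ± 1123 normalized counts (SD, n = 4) to 8461 ± 1849 (SD, n = 3), a log2 change of 3.14 (limma adjusted p = 0.00728, SE 0.556). On the scale of log2 level minus log2 level of Ptprc, a gene whose own level does not change falls when Ptprc rises. Igj on this scale was -5.45, -7.12, -6.51 and -6.16 in controls and -3.35, -4.78 and -4.77 in ICI-myocarditis, with all ICI-myocarditis libraries above all controls. Igj was the only one of the 9 genes with that order. How many of all genes share it was not counted, so the order is not shown to be particular to Igj. Cd22 overlapped between groups, from -6.77 to -5.00 in controls and from -6.12 to -4.49 in ICI-myocarditis. Cd79b and Pou2af1 overlapped too, since control 2 lay at -7.03 and -8.42.

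The other 5 genes were lower relative to Ptprc in every ICI-myocarditis library than in any control. A gene of unchanged level takes this order too, and the share of all genes with it was not counted. In their own levels 0 of the 9 genes were called lower. The log2 changes were 0.34 for Cd79a, 0.17 for Blk, 0.79 for Mzb1 and -0.38 for Ms4a1, and Pax5 was not tested. Ms4a1 had a median of -6.09 in controls and -10.1 in ICI-myocarditis, and Pax5 had medians of -7.33 and -10.7. For Cd79a the medians were -5.64 and -8.54, for Mzb1 -4.71 and -7.12, and for Blk -1.84 and -4.79. In bulk tissue, the number of cells of a type and the RNA per cell cannot be told apart.

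**Figure D3:**
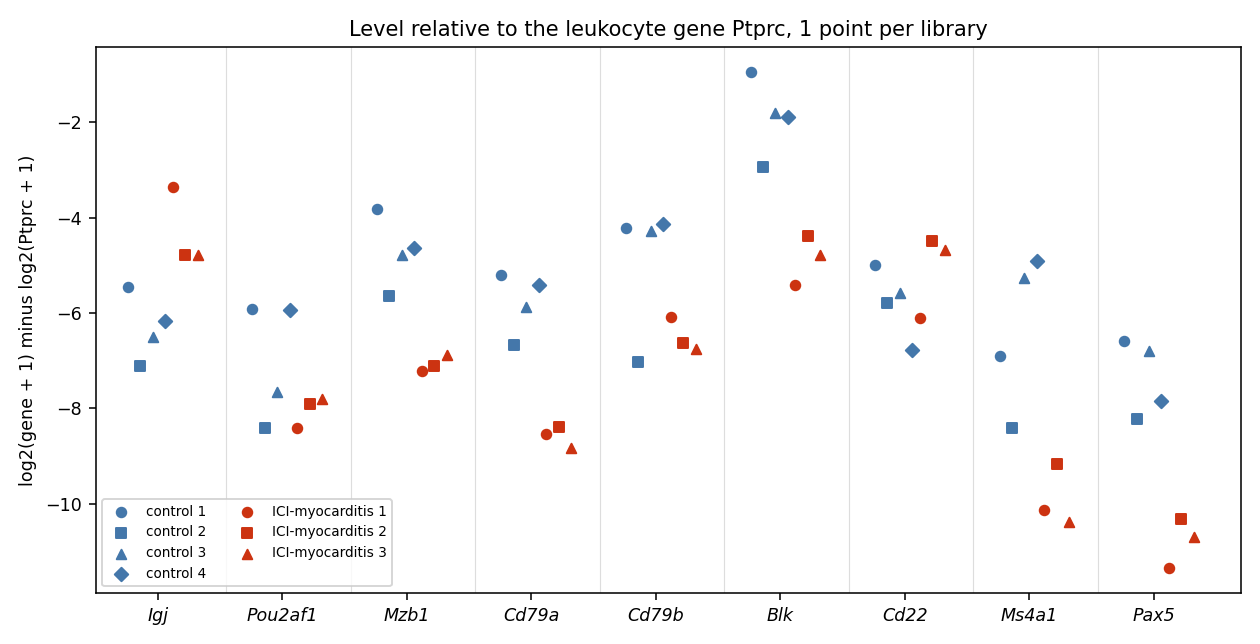
Log2(gene + 1) minus log2(Ptprc + 1), in log2 units, for the 9 genes, 1 point per library, controls in blue and ICI-myocarditis in red. Only Igj has all 3 ICI-myocarditis points above the controls, and Mzb1, Cd79a, Blk, Ms4a1 and Pax5 have all 3 below.

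Other genes of the lineage were read from lists chosen by role. The counts of every list below stand beside the shares over all genes tested, 11.7% called higher and 4.00% lower. Of 15 other B cell surface genes, 14 were tested, 8 were called higher and 0 lower (0 lower also at an unadjusted p under 0.05), with a median log2 change of 1.64 against -0.02 over all genes tested. Cr2, the complement receptor CD21, had a control range of 8.76 to 146 and 19.4 to 36.7 in ICI-myocarditis hearts (log2 change -0.45, limma adjusted p = 0.760). Fcrla, an Fc receptor-like protein of B cells named after its values were seen, had 4.03 to 7.82 normalized counts in controls and 26.8 to 66.5 in ICI-myocarditis, and met the filter only through the latter. The lowest p-values belonged to Cd72, Cd37 and Cd24a, which other blood cells also express. Cd72, an inhibitory lectin, rose from 112 ± 109.8 (SD, n = 4) to 1745 ± 399.7 normalized counts (SD, n = 3), by 4.33 on the log2 scale (limma adjusted p = 0.00316). The tetraspanin gene Cd37 rose by 2.78 and Cd24a by 1.55 (limma adjusted p = 0.00716 and 0.00811).

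B cell receptor signalling was represented by 17 genes, all tested, of which 11 were called higher and 1 lower (11.7% and 4.00% over all genes tested). The median log2 change of the 17 was 1.52. Many of these are shared with macrophages and T cells. Pik3ap1, an adaptor for PI3 kinase, rose by 2.97, Ptpn6, the phosphatase SHP-1 that acts with CD22, by 2.91, and Prkcb, a protein kinase C, by 1.95 (limma adjusted p = 0.00436, 0.00597 and 0.00454). The gene called lower was Bank1, a B cell scaffold protein, named here after its value was seen. Controls had 64.5, 107, 121 and 85.1 normalized counts of Bank1 and ICI-myocarditis libraries had 29.7, 29.7 and 17.6, with no overlap (log2 change -1.84, limma adjusted p = 0.00977, SE 0.358).

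Among 13 B cell transcription factors, all tested, 4 were called higher and 0 lower (1 lower at an unadjusted p under 0.05), with a median of 0.11. Ikzf3 rose by 4.59, Ikzf1 by 3.01 and Sfpi1, which encodes PU.1, by 2.55 (limma adjusted p = 0.00719, 0.00728 and 0.00394). The log2 change of Ikzf3 was 5.39 without control 2 and 4.01 without control 4. Ikaros factors are also made by T cells, and PU.1 by macrophages. Mef2c, Id3 and Foxo1, named after their values were seen, were not called. They were abundant in control hearts, at means of 3219, 2073 and 1714 normalized counts. The part of B cells in such levels, and so in the median of this list, was not tested.

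Of 20 plasma cell genes, 18 were tested, 7 were called higher and 0 lower (0 lower also at an unadjusted p under 0.05), with a median log2 change of 0.61. The regulators of plasma cell fate differed in outcome. Irf4, which T cells and macrophages also express, rose by 2.07 (limma adjusted p = 0.0283, SE 0.525), a call lost without ICI-myocarditis 2, ICI-myocarditis 3 or control 1 (0.0707, 0.119 and 0.0752). Prdm1, which encodes BLIMP-1, had a log2 change of 1.31 (limma adjusted p = 0.154), and Xbp1, the factor that expands the secretory apparatus, 0.34 (limma adjusted p = 0.347). Sdc1, which encodes the plasma cell marker CD138, had 305.6 ± 16.3 normalized counts (SD, n = 4 controls) against 473 ± 145.6 (SD, n = 3 with ICI-myocarditis). Its log2 change was 0.59 (limma adjusted p = 0.126). Every ICI-myocarditis library was above every control for Sdc1, as for 17.3% of genes tested. The part of other cells in the level of Sdc1 was not tested. Slamf7, also found on T and NK cells, rose by 4.66, Edem1 by 1.44 and Creld2 by 0.79 (limma adjusted p = 0.00866, 0.0164 and 0.0246). Slamf7 was at 5.47 without control 2 and 4.07 without control 4. Edem1 and Creld2 act in protein quality control in the endoplasmic reticulum. Edem1 was not called without ICI-myocarditis 3 or control 3 (0.0678 and 0.0569), and Creld2 was not called without any 1 of the ICI-myocarditis libraries or control 3 (0.0597 to 0.103).

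Tnfrsf17, the plasma cell survival receptor BCMA, was named after its values were seen. It had at most 6.17 normalized counts in the controls, against 2.05 in ICI-myocarditis. Immunoglobulin heavy and light chain genes were not analysed here.

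The library with the most Igj, ICI-myocarditis 1, was also the highest of all 7 for 4 of the 20 plasma cell genes. Of the 4, 3 were tested, and over all genes tested 9.30% had their highest value in that library. The same library was highest for 3 of 6 natural killer cell markers and 3 of 9 plasmacytoid dendritic cell markers. The 4 genes were picked out by this pattern after their values were seen. Fcrl5, an Fc receptor-like protein of B and plasma cells, had 28.6 normalized counts there, 9.42 and 4.58 in the other ICI-myocarditis libraries and 0, 2.47, 0 and 0 in controls. Eaf2 had 52.2 normalized counts in ICI-myocarditis 1 and at most 30.8 elsewhere. Fkbp11 had 141 against at most 95.1, and Sec11c, a signal peptidase subunit, 759 against at most 503. Fcrl5 did not reach the filter, and Eaf2, Fkbp11 and Sec11c did not pass the test between groups (limma adjusted p = 0.933, 0.418 and 0.295). Ptprc was highest in ICI-myocarditis 3.

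Genes of B cell precursors were low in every library. Of 7 such genes, 0 reached the filter, and Vpreb2 and Igll1 had 0 reads in all 7 libraries, which allows up to 3 reads in each. Of 7 germinal centre genes, 6 were tested, 2 were called higher and 0 lower (0 lower also at an unadjusted p under 0.05), with a median of 0.89. Gcsam rose from 9.20 ± 10.3 (SD, n = 4) to 101.7 ± 27.3 normalized counts (SD, n = 3), by 3.73 on the log2 scale (limma adjusted p = 0.00651), or by 4.32 without control 2. S1pr2, a sphingosine-1-phosphate receptor, rose by 1.26 (limma adjusted p = 0.0121, and 0.0525 without ICI-myocarditis 3), and Mybl1 had 1.15 (limma adjusted p = 0.0833).

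Of 15 ligands and receptors that attract or sustain B cells, 12 were tested, 7 were called higher and 1 lower, with a median log2 change of 2.75. Tnfsf13b, which encodes the B cell survival factor BAFF and is made by myeloid cells, had 30.2, 109, 51.4 and 35.0 normalized counts in the controls, against 415, 499 and 845 in ICI-myocarditis. Its groups were fully apart, with a log2 change of 3.48 (limma adjusted p = 0.00340, SE 0.454). Cxcl13, the chemokine that draws B cells into follicles, had 2.02, 0, 1.12 and 3.75 normalized counts in the controls, against 12.3, 44.2 and 112 in ICI-myocarditis. The log2 change of Cxcl13 was 4.12 (limma adjusted p = 0.0104, SE 0.812), and it was 3.38 without ICI-myocarditis 3 (limma adjusted p = 0.0546) and 4.93 without ICI-myocarditis 1. Cxcl13, Lta and Il21, the last named after its values were seen, met the low-value filter only through the ICI-myocarditis libraries. All of them are among the genes counted as called higher. Il21 had at most 4.93 normalized counts in controls and 13.3 to 35.1 in ICI-myocarditis (limma adjusted p = 0.0103). The lymphotoxin genes Ltb and Lta rose by 4.24 and 3.58 (limma adjusted p = 0.00360 and 0.00504), Lta from at most 1.23 normalized counts in any control, so that its fold depends on the pseudocount (4.23 with 0.5 and 1.96 with 5). The gene called lower was Cxcl12, a chemokine that retains B lineage cells in bone marrow, with a log2 change of -1.51 (limma adjusted p = 0.0251), named after its value was seen.

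**Figure D4:**
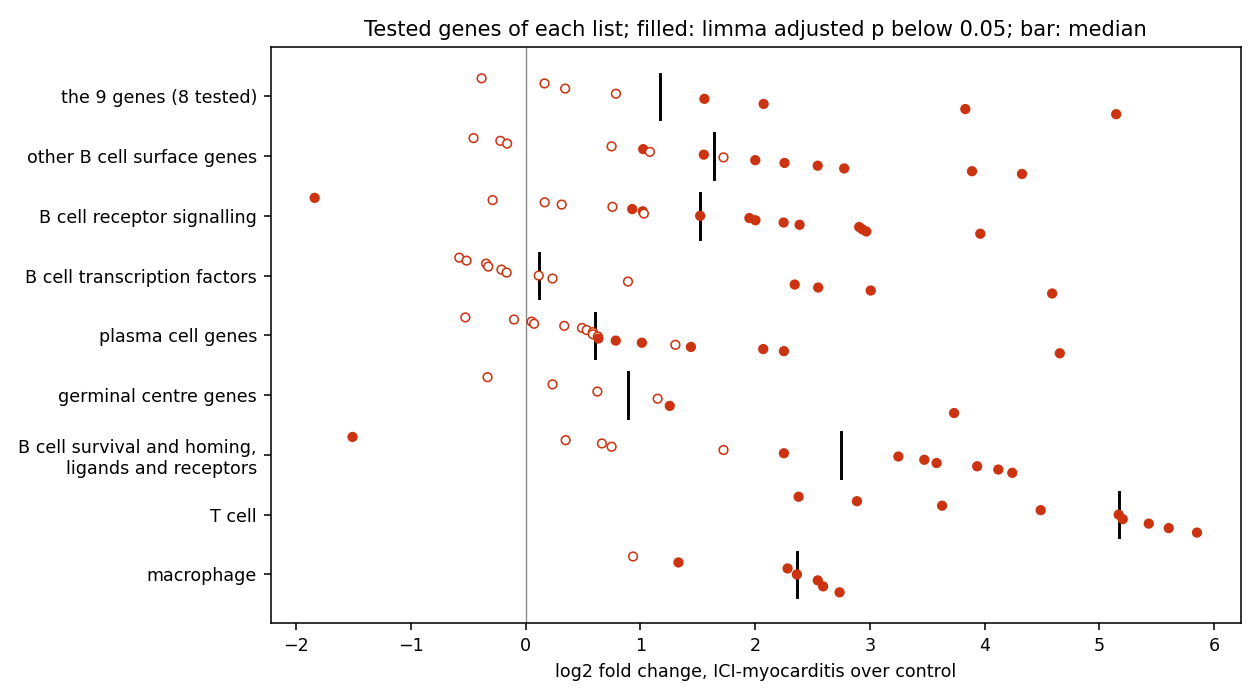
Log2 fold change of ICI-myocarditis over control for the tested genes of each list, 1 point per gene, filled where the limma adjusted p was below 0.05, with a bar at the list's median. The T cell and macrophage lists stand at medians of 5.17 and 2.36, and the B cell transcription factor list at 0.11.

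Markers of other cells were read as well, beside 11.7% called higher over all genes tested. All 9 T cell markers were called higher, and their summed level went from 164 to 1707 normalized counts in controls to 7378 to 11260 in ICI-myocarditis. Cd3e, a T cell receptor subunit, rose by 5.61 (limma adjusted p = 0.00793, SE 1.01), or by 6.67 without control 2 and 4.97 without control 4. Of 7 macrophage markers, 6 were called higher, with sums of 7843 to 9967 in controls and 28808 to 56085 in ICI-myocarditis. Of 6 natural killer cell markers, 4 were tested and 2 called higher, with sums of 12.5 to 204 and 268 to 384 normalized counts and with Klra8 and Klra4 at 0 throughout. Plasmacytoid dendritic cells can express Mzb1, Cd79b and Blk. Of 9 markers of that type, 8 were tested and 4 called higher, with sums of 25482 to 45416 normalized counts in controls and 22549 to 26973 in ICI-myocarditis. Of these sums, Cox6a2, which heart muscle also expresses, made up 10906 to 38435 in controls and 8018 to 14523 in ICI-myocarditis. Siglech, the most restricted of them, had 3.02, 22.2, 5.58 and 2.50 normalized counts in the controls, against 23.5, 7.97 and 20.6 in ICI-myocarditis hearts (log2 change 1.30, limma adjusted p = 0.271, or 1.89 and 0.0431 without control 2). The part of these cell types in the levels of Igj, Cd22, Cd79b and Pou2af1 was not tested.

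For carry-over from neighbouring organs, thymus and airway markers were read. Foxn1, which defines thymic epithelium, was at 0 in all 7 libraries. The 8 thymus markers summed to 44.4 to 81.4 normalized counts in controls and 52.9 to 65.5 in ICI-myocarditis. Of these sums, Ccl25 made up 36.3 to 67.8 in controls and 47.1 to 60.4 in ICI-myocarditis. Ccl25 was the only thymus marker to reach the filter. The 5 lung and airway markers summed to 1.25 to 16.0 normalized counts in controls and 15.3 to 18.8 in ICI-myocarditis, with Sftpa1 and Scgb3a2 at 0. The 6 red blood cell markers summed to 10755 to 42548 normalized counts in controls and 6845 to 28527 in ICI-myocarditis, all from Beta-s and Alas2, while 4 other haemoglobin genes, members of families of near-identical copies, were listed at 0. Of 8 markers of gamma delta and IL-17 T cells, 4 were tested and their sums overlapped, at 3197 to 3769 normalized counts in controls and 3148 to 3652 in ICI-myocarditis, with Il17a at 0 throughout.

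The genes most like each member across the 7 libraries were found by the root mean square difference of log2 levels after removal of each gene's mean. For Igj these were Apol9b at 0.54 log2 units, Klra3 at 0.60 and Acp5 at 0.63, the loosest match among the genes compared in this way. Apol9b and Klra3 belong to families of near-identical genes. Cd22 was followed by Tmem229a (0.29), Tnfsf8 (0.35) and Niacr1 (0.36), and Cd79b by B3galnt1 (0.29), Sema3e (0.29) and Tlr7 (0.30). The nearest to Pou2af1 were P2ry6 (0.11), B4galt5 (0.17) and Ikzf4 (0.17). Those of Mzb1 were Malt1 (0.06), Has1 (0.10) and Osmr (0.12), and those of Ms4a1 were Gpr34 (0.33), Cct6b (0.44) and Rwdd3 (0.44). None of the named neighbours was itself among the 9 genes.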

How the data were processed

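Bulk total RNA of 7 mouse hearts was sequenced from a stranded kit, per the labels' protocols. The submitters' processing notes name STAR 2.7.3 and the builds GRCm38 and mm10. The counting program, annotation and use of strand are not given in the sources used here. The deposited values of each library are a signal, normalized counts, that is gene reads divided by 1 size factor. Whole reads were recovered in 100% of values (within 0.01 of a whole number), although for control 1 the value of 1 read, 1.01, is so close to 1 that this is a weaker sign. The authors' deposited table also holds per gene a log2 change and its error, a test statistic used as a score, and p-values before and after adjustment, with header names as DESeq2 writes them. Rows with names turned into dates numbered 27.

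limma 3.58.1 (R 4.3.3) was run on log2(normalized count + 1) with trend and robust variance, over the 15258 genes that reached 10 normalized counts in 3 or more libraries, with Benjamini-Hochberg adjustment and a threshold of 0.05. This fold change understates the change of low genes. p-values measure the spread between animals, whose litters are not given in the labels. The test was checked on simulated counts. edgeR 4.0.16 and DESeq2 1.42.0 on recovered reads, other scalings, pseudocounts and filters, a replicate block and leaving out each library were alternatives.

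The 9 genes and all lists were chosen with earlier results of these data known. Genes named from a list are the 3 with the lowest p-value, a set named by role (Cr2, Xbp1, Prdm1, Irf4, Sdc1, Tnfsf13b, Cxcl13, Cd3e, Ptprc, Siglech, Ctla4 and Pdcd1), the 3 tested genes nearest each of the 9 whose levels spanned at least 4-fold (predicted genes passed over), and others, which the text marks as picked once values were known. A further gene of this set is not reported here. Gene positions and exon lengths come from GENCODE M21 and promoters from RefSeq, both on GRCm38. At 20931730 reads or more per library, counting error limits only the low genes, such as Pax5 (1 to 8 reads).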

Additional observations from a re-analysis of the deposited data

Results flagged for a closer look

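Pou2af1 in control 3 lay apart from the other 3 controls on the low side: its gap to the next library was 0.877 of the range of the controls on the log2 scale, above Dixon's 95% critical value for 4 samples. The values were 4.47 normalized counts against 7.06 to 7.51, or 4 reads against 6 to 7, and chance flags about 1 in 20 such groups. Of 38 genes examined in this way, this was the 1 found.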

How the results depend on the processing

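The count of genes called, 2397, was 4003 with limma-voom and quality weights, and ran from 1080 (without ICI-myocarditis 3) to 3345 (without control 2) when 1 library was left out. The 4 genes of the set called higher became 1 to 4 under the same omissions, and 0 were called lower in any alternative. Igj passed in all 18 alternatives, with log2 changes from 4.70 to 5.52 and a largest adjusted p of 0.0134. Cd22 passed in 17 of 18 (3.22 to 4.37), Pou2af1 in 15 of 17 (1.63 to 2.29) and Cd79b in 12 of 18 (1.002 to 1.84). Signs turned for genes that were not called. Ms4a1 was at 0.064 without control 3 and ran from -0.88 to 0.064 over the omissions. Blk ran up to 0.47 (without ICI-myocarditis 1) and was at -0.12 with the replicate block, -0.12 without control 4 and -0.036 without ICI-myocarditis 3. Cr2 ran from -1.15 (without control 4) to 0.15 (without control 2). The cause was not tested. Scaling by total reads moved the median over all genes to 0.13 from -0.02. The replicate block gave 1780 calls and 3 of the set, with Cd79b at an adjusted p of 0.0534. It removes control 4 from the comparison, and libraries with the same number shared only that number, with correlations of their deviations from the group means between -0.27 and -0.08. Of the other named genes, Creld2 also missed the threshold under the block (0.146), Prdm1 passed with limma-voom or without control 2 (0.0441 and 0.0407), Siglech passed without control 2 (0.0431), and Mybl1 passed with limma-voom, with DESeq2 or without control 2 (0.0175, 0.0335 and 0.0261). Pdcd1 missed it by edgeR (0.0530). Depth limits Pax5, Ms4a1 and Cd79a, which had at most 29 reads in any library.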
